A study of Mus musculus with 28 samples.

Results

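The 8 genes described here encode the enzymes that write, copy and remove cytosine methylation in mouse DNA: Dnmt1, Dnmt3a, Dnmt3b, Uhrf1, Tet1, Tet2, Tet3 and Tdg. They were chosen by symbol, and all 8 of 8 were found as single rows among the 55450 genes of the RNA table. C10 is a mouse Pre-B cell line, a single established line, that carries C/EBPαER, a rat C/EBPα fused to the hormone binding domain of the estrogen receptor. In these cells β-estradiol sends the factor to the nucleus and the cells convert towards macrophages. RNA was sequenced at 0h (uninduced C10 cells) and at 1h, 12h and 48h of culture with 100 nM β-estradiol, 10 nM IL-3 and CSF-1. There were 3 biological replicates at each time, and every library, including the 0h ones, came from cells that carry the transgene. No library without the transgene, and none with the cytokines alone, was compared, so the effects of the factor, the cytokines and time in culture cannot be told apart.

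DNA methylation of CpG sites is kept through cell division by DNMT1, which copies the mark onto the new strand, and by UHRF1, which finds hemimethylated sites behind the replication fork and recruits DNMT1. DNMT3A and DNMT3B place new methyl groups. TET1, TET2 and TET3 oxidise the methyl group step by step, and TDG cuts out the most oxidised forms so that base excision repair can restore plain cytosine. In blood cells TET2 and DNMT3A are best known as genes that are mutated in clonal haematopoiesis and myeloid leukaemia. Only RNA was measured for these genes here, and no methylation level, protein or enzyme activity.

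The 8 genes do not overlap each other in the GRCm38 annotation (GENCODE M21). Dnmt1 spans chr9:20907209-20959888 on the minus strand and Uhrf1 chr17:56303321-56323486 on the plus strand. Dnmt3a spans chr12:3806007-3914443 and Dnmt3b chr2:153649450-153687730, both on the plus strand. Tet1 (chr10:62804570-62908996), Tet2 (chr3:133463679-133545139) and Tet3 (chr6:83362373-83459084) are on the minus strand, and Tdg (chr10:82629828-82650799) is on the plus strand.

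The proximal promoters of the genes with the largest changes are shown first, with a single start for each gene. Base composition and matches differed between starts of the same gene as well as between genes. Sequences are from RefSeq (GRCm38.p6), 250 bases before an annotated start, written 5′ to 3′ on the gene's strand. Capitals mark a match to TTTCCCGC, TTTCGCGC, TTTGCCGC or TTTGGCGC on either strand, letters that E2F factors are known to bind. Both this motif and the C/EBP motif TTGCNNAA were picked after the expression values were known.
Uhrf1, chr17:56304063-56304312, plus strand, second of 2 RefSeq starts: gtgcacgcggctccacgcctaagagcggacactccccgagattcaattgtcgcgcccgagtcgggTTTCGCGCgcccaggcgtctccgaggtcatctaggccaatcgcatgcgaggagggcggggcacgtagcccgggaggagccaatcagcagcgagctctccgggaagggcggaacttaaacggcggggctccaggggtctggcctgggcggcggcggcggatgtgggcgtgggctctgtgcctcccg
Dnmt1, chr9:20952980-20953229, minus strand, second of 3 RefSeq starts: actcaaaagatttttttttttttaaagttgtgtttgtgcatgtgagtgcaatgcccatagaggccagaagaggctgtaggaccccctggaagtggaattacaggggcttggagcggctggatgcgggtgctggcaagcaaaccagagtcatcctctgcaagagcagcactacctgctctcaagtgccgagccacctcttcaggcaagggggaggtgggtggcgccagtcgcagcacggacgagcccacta
Tet2, chr3:133544391-133544640, minus strand, its only RefSeq start: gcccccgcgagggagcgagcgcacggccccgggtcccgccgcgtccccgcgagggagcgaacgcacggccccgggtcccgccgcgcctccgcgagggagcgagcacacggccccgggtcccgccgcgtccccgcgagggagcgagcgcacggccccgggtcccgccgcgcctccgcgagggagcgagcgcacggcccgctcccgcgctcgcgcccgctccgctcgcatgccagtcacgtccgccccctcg

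The Uhrf1 window shown held 1 E2F match, 185 bases before the start, and the window of its first RefSeq start held none. Dnmt1 held none in the window shown, and 2 matches around the third of its RefSeq starts. They were ccgcgcGCGCGAAAaagccg at chr9:20952829-20952848 and gcagcgTTTGGCGCgggctg at chr9:20952577-20952596, both overlapping annotated Dnmt1 exons. Over windows from 250 bases before to 50 bases after each start, 2.26% of 32851 RefSeq promoters held an E2F match, and none of the other 6 genes did. None of the 13 windows of the 8 genes held TTGCNNAA, which 10.8% of all promoters held. PU.1's GAGGAAGT was likewise in none of them, against 3.20% of all promoters. CCAAT, letters bound by NF-Y, was in at least 1 window of Dnmt1, Uhrf1, Tet3 and Tdg, and in 37.4% of all promoters. These shares of all promoters are per single window, while Dnmt1, Dnmt3a and Uhrf1 have several windows and so more chances of a match. The Tet2 window held 57 CpG, more than 99.8% of promoters, whose median was 7. Dnmt3b held 30 CpG and Tdg 26, and the highest of the Dnmt1, Uhrf1 and Dnmt3a windows held 33, 33 and 47. The other Uhrf1 window held 12 CpG, and the other Dnmt1 windows 2 and 12, the last being the Dnmt1 window shown. A match here is a run of letters, and binding was not measured.

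Levels are given as TPM, a length-corrected share of all transcripts in a library and the unit of the deposited table, in the order replicate 1, 2 and 3. Levels of different genes can therefore be set beside each other, and each is relative to all RNA in its library. The 20 most abundant genes, ribosomal RNA among them, took 86.8% to 94.2% of the TPM, and over all 16415 genes tested, log2 fold changes against 0h had medians of 0.59 (1h), 0.34 (12h) and -0.18 (48h). Each call is therefore also given after median-of-ratios scaling, which sets the libraries to the same level over genes detected in all of them and leaves medians of 0.02, 0.07 and 0.07. The summed TPM of 8 Pre-B cell markers ran from 217.9 to 254.8 in the 0h libraries and from 26.4 to 37.8 in those of 48h. That of 8 macrophage markers ran from 10.4 to 11.4 and from 550.5 to 650.6. Much of it was Ctsc, with means of 8.66 TPM at 0h and 359 at 48h. On both scales all 8 Pre-B cell markers passed as lower at 48h in limma, and the 7 macrophage markers tested as higher. Of all genes, 27.2% were lower and 15.9% higher as deposited, and 22.0% and 24.5% scaled. Adgre1 was too low to test, with 0, 0 and 0.29 TPM at 48h. The summed TPM of 5 granulocyte markers was at most 0.36 in the 0h and 0.38 in the 1h libraries, 3.03 to 6.20 at 12h and 1.36 to 4.04 at 48h. Of these, S100a8 was listed at 0 at 0h and had 0.92 to 2.85 TPM at 48h, Mpo and S100a9 were listed at 0 in every library, and the part of this list in the values of the 8 genes was not tested. T cell markers summed to at most 0.09 TPM and erythroid and fibroblast markers were listed at 0 in every library. TPM keep no sequencing depth, so no counting error can be given. In bulk RNA, fewer cells of a type and less RNA per cell cannot be told apart.

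The genes of methylation maintenance fell furthest. By 48h Uhrf1 and Dnmt1 were far below their 0h level, Dnmt3b and Tdg had fallen too, Tet2 had risen 5.91-fold as a ratio of mean TPM, and Tet3 did not pass the test in either direction. Tet2 was the sixth of the 8 genes in mean TPM at 0h and the first at 12h and at 48h, where it made up 48.7% of their summed TPM, Tet1 included, against 2.90% at 0h. Uhrf1 went from 38.6% of that sum at 0h to 0.97% at 48h.

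**Figure D1:**
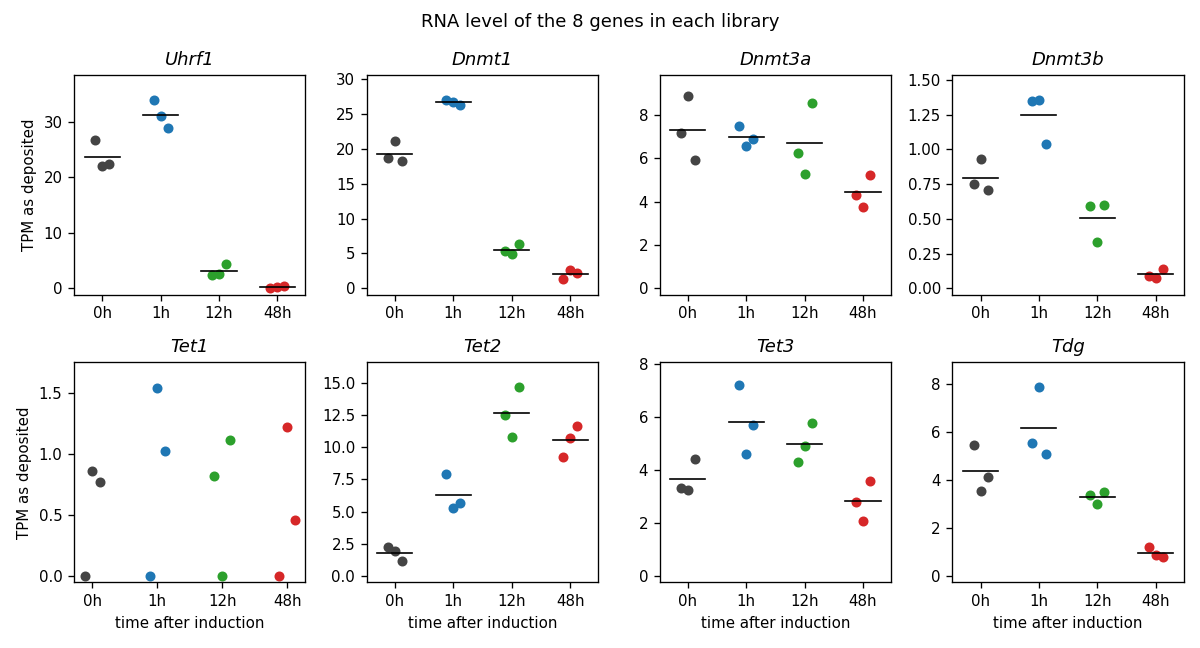
Each panel plots TPM as deposited (linear y axis from 0) of a gene against time after induction. Points are the 3 libraries of a time and lines their mean, which is not drawn for Tet1 because it is listed at 0 in 1 library of every time. Uhrf1 and Dnmt1 are lowest at 48h, and their higher TPM at 1h did not pass the test and was below 0h after scaling. At 48h Uhrf1 lies between 0.11 and 0.31 TPM, while Tet2 lies between 9.26 and 11.7 TPM.

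Uhrf1 had 26.7, 22.0 and 22.4 TPM at 0h and 33.9, 31.1 and 28.9 at 1h. It had 2.35, 2.52 and 4.29 at 12h and 0.11, 0.21 and 0.31 at 48h. The 12h libraries lay below all 0h libraries and the 48h libraries below all 12h libraries. The 0h mean of 23.7 ± 2.63 TPM (SD, n = 3) compares with 0.21 ± 0.10 TPM (SD, n = 3) by 48h, 113-fold lower as a ratio of mean TPM. On the log2(TPM + 0.1) scale the change was -2.96 ± 0.27 (SE) at 12h (adjusted p = 1.35e-05, limma) and -6.31 ± 0.27 at 48h (adjusted p = 1.38e-08, limma), and after scaling -3.29 and -6.07. Because the 48h values are near the added 0.1, the log2 change at 48h ranged from -4.35 with 1 added to -6.86 with 0.01 added. Of all genes tested, 0.24% had a lower log2 fold change at 48h.

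Dnmt1 had 18.6, 21.1 and 18.2 TPM at 0h and 27.1, 26.7 and 26.2 at 1h. It had 5.30, 4.86 and 6.34 at 12h and 1.37, 2.57 and 2.19 at 48h. All 1h libraries lay above all 0h libraries in TPM, yet the change of 0.47 did not pass the test (adjusted p = 0.12, limma) and was -0.19 after scaling. It passed without 48h replicate 1 (adjusted p = 0.042, limma). Dnmt1 fell by 1.80 ± 0.21 (SE) at 12h (adjusted p = 7.80e-05, limma) and by 3.22 ± 0.21 at 48h (adjusted p = 3.04e-07, limma), both on the log2 scale. The scaled changes were -2.13 and -2.83. The 12h and 48h libraries did not overlap, and the further fall of 1.42 from 12h to 48h also passed (adjusted p = 0.00037, limma). After scaling this step was -0.70 (adjusted p = 0.014, limma).

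Of the de novo methyltransferases, Dnmt3a was the steadier. Dnmt3a had 7.16, 8.88 and 5.92 TPM at 0h and 7.51, 6.57 and 6.89 at 1h. It had 6.26, 5.28 and 8.58 at 12h and 4.32, 3.77 and 5.24 at 48h. As deposited the 0h, 1h and 12h libraries overlapped, and the 48h libraries lay below those of 0h. The log2 change at 48h was -0.70 ± 0.22 (SE; adjusted p = 0.022, limma), but -0.30 after scaling (adjusted p = 0.21, limma), where the 0h and 48h libraries overlapped. It also did not pass without 0h replicate 2, 48h replicate 1 or 48h replicate 2. At 1h the log2 change was -0.05 as deposited and -0.70 after scaling (adjusted p = 0.033, limma), and that scaled call held in 7 of 12 fits that each left out a library. The times at which Dnmt3a passed the test therefore depended on the scale, with a negative log2 change on both at 1h and at 48h.

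Dnmt3b was among the lowest of the 8 genes throughout, with 0.75, 0.93 and 0.71 TPM at 0h and 1.35, 1.36 and 1.04 at 1h. It had 0.59, 0.33 and 0.60 at 12h and 0.09, 0.07 and 0.14 at 48h. As deposited the libraries of neighbouring times did not overlap, while after scaling those of 0h and 1h did. The 48h change against 0h was -2.17 ± 0.29 (SE, log2(TPM + 0.1); adjusted p = 7.58e-05, limma) and -1.99 after scaling, and ranged from -0.71 with 1 added to -2.92 with 0.01 added. At 12h it was -0.59 (adjusted p = 0.15, limma) as deposited and -0.88 (adjusted p = 0.029, limma) after scaling, a call that held in 8 of 12 scaled fits that each left out a library. At 1h the log2 change was 0.59 as deposited (adjusted p = 0.15, limma) and -0.01 after scaling, and neither passed.

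Among the dioxygenases, Tet2 rose at every time against 0h. Tet2 had 2.27, 1.90 and 1.19 TPM at 0h and 7.92, 5.30 and 5.66 at 1h. It had 12.5, 10.8 and 14.7 at 12h and 9.26, 10.7 and 11.7 at 48h. No 0h library reached the lowest 1h library, nor a 1h library the lowest 12h one, while 12h and 48h overlapped. Tet2 rose by 1.78 ± 0.25 (SE, log2) after 1h (adjusted p = 0.00063, limma), 2.79 ± 0.25 at 12h (adjusted p = 9.33e-06, limma) and 2.54 ± 0.25 at 48h (adjusted p = 6.73e-06, limma). The scaled changes were 1.14, 2.47 and 2.95, and all passed, as they did in each of 12 scaled fits that left out a library. As a fold, the 1h change was 3.44 as deposited and 2.20 scaled. From 1h to 12h Tet2 rose by 1.01 (adjusted p = 0.013, limma), a call lost without 1h replicate 2 (adjusted p = 0.055, limma). From 12h to 48h the change was -0.26 as deposited and 0.49 after scaling, and neither passed.

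Tet3 had 3.33, 3.23 and 4.40 TPM at 0h and 7.20, 4.58 and 5.68 at 1h. It had 4.30, 4.90 and 5.75 at 12h and 2.78, 2.07 and 3.59 at 48h. As deposited the 1h libraries lay above the 0h libraries, which they overlapped after scaling, and the 12h and 48h libraries overlapped those of 0h. No comparison of Tet3 with 0h passed the test. As deposited its log2 change was 0.65 after 1h (adjusted p = 0.072, limma), 0.44 after 12h and -0.39 after 48h, and -0.00103, 0.11 and 0.01 after scaling. At 48h the scaled 95% interval ran from -0.52 to 0.55. The step from 12h to 48h was -0.83 as deposited (adjusted p = 0.021, limma) and -0.10 after scaling (adjusted p = 0.84, limma), and it was also lost without 12h replicate 3 or 48h replicate 2.

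Tet1 was listed at 0 in 1 library of every time. It had 0, 0.86 and 0.77 TPM at 0h and 0, 1.54 and 1.02 at 1h. It had 0.82, 0 and 1.11 at 12h and 0, 1.22 and 0.46 at 48h. The libraries of all times overlapped. An exact 0 beside values near 1 can be an estimate that failed, so no mean or fold is given for Tet1 alone, sums and medians over the genes are also given without it, and it passed no comparison in limma.

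Tdg, the glycosylase that acts after the TET enzymes, had 5.46, 3.52 and 4.11 TPM at 0h and 5.52, 7.88 and 5.08 at 1h. It had 3.39, 2.99 and 3.48 at 12h and 1.21, 0.88 and 0.77 at 48h. The 48h libraries lay below all others. Tdg fell by 2.08 ± 0.24 (SE, log2) at 48h against 0h (adjusted p = 2.65e-05, limma), and by 1.71 after scaling (adjusted p = 0.00013, limma). At 12h the change was -0.38 as deposited (adjusted p = 0.26, limma) and -0.71 after scaling (adjusted p = 0.045, limma), and the scaled call held in 4 of 12 fits that each left out a library. The processed pseudogene Tdg-ps, which could share reads with Tdg, had a mean of 0.31 TPM at 0h and 0.05 at 48h, where it was listed at 0 in 1 library.

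**Figure D2:**
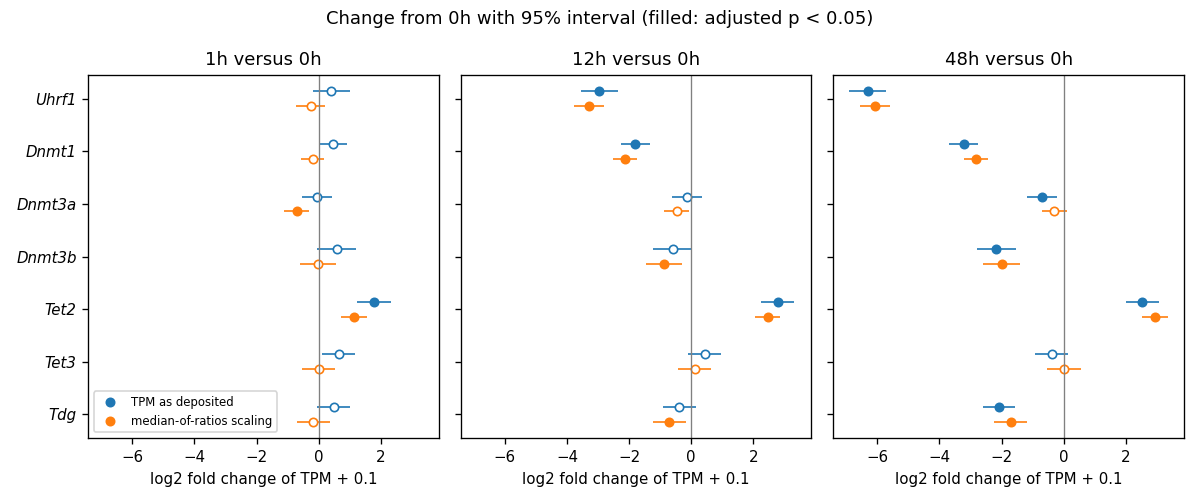
The x axis is the log2 fold change of TPM + 0.1 against 0h in limma for 7 genes at 1h, 12h and 48h, with 95% intervals. Filled points passed adjusted p under 0.05. Blue points use TPM as deposited and orange points the scaled TPM. Uhrf1, Dnmt1 and Tet2 lie on the same side at 12h and 48h on both scales, while Dnmt3a passes at 48h only as deposited (-0.70 against -0.30).

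Read against all genes, the number of calls among the 8 was as follows. At 1h against 0h, 1 of 8 was higher (Tet2) where 24.1% of all genes were, and in limma none was lower, at an unadjusted p under 0.05 also 0, where 1.41% of all genes were. After scaling, 1 was higher (Tet2) against 5.42% of all genes and 1 lower (Dnmt3a) against 4.92%. At 12h, 1 was higher (Tet2) against 22.3% and 2 lower (Uhrf1 and Dnmt1) against 7.82%. Scaled, 1 was higher against 16.0% and 4 lower, with Dnmt3b and Tdg added, against 14.5%.

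At 48h against 0h, 5 of 8 were lower (Uhrf1, Dnmt1, Dnmt3b, Tdg and Dnmt3a) where 27.2% of all genes were, and 1 was higher (Tet2) where 15.9% were. Scaled, 4 were lower against 22.0% and 1 higher against 24.5%. The median log2 change of the 8 genes at 48h was -1.39 as deposited and -1.003 after scaling, and that of the 7 genes without Tet1 -2.08 and -1.71, beside -0.18 and 0.07 for all genes. The members are too few for these shares to say more than the single genes do.

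Between 1h and 12h, 4 of 8 fell (Uhrf1, Dnmt1, Dnmt3b and Tdg) against 15.0% of all genes, and Tet2 rose against 6.98%. Scaled, 3 fell, without Tdg, against 8.77%, the Dnmt3b call holding in 6 of 12 scaled fits that each left out a library, and Tet2 rose against 11.3%. The Tdg step of -0.86 (adjusted p = 0.024, limma) was also lost without 1h replicate 2, 12h replicate 1 or 12h replicate 2. Between 12h and 48h, 5 of 8 fell (Uhrf1, Dnmt1, Dnmt3b, Tdg and Tet3) against 31.7% of all genes. None rose in limma, at an unadjusted p under 0.05 also 0, against 4.10%. Scaled, 4 fell, without Tet3, against 11.9%, and none rose, against 10.5%, with Tet2 at an unadjusted p under 0.05. Uhrf1 fell by 3.35 in that last step (adjusted p = 6.18e-06, limma) and Tdg by 1.70 (adjusted p = 0.00026, limma).

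A ratio of TPM within a library does not move with the scale of that library, so ratios between the genes were compared as well. The test was a two-sided exact permutation of log2 ratios with 0.1 added to each term. The added 0.1 lets the scale act on low values. At 48h it was about as large as Dnmt3b, at 0.07 to 0.14 TPM, and near the lowest Uhrf1 value, 0.11 TPM. With 3 libraries on each side the smallest p is 0.1, so none of the 15 comparisons could pass, and a raw p of 0.1 became 0.136 after Benjamini-Hochberg adjustment over them in this exact test. Summed Tet1, Tet2 and Tet3 were 0.194 to 0.256 times summed Dnmt1, Dnmt3a and Dnmt3b at 0h and 2.08 to 2.19 times at 48h. The log2 ratio went from -2.17 ± 0.20 (SD, n = 3) through -1.43 at 1h and 0.53 at 12h to 1.07 ± 0.04 (SD, n = 3) at 48h. Every 48h library lay above every 0h library, with a difference of 3.24 and the smallest p the exact test allows, 0.1. Without Tet1, a choice made after the values were seen, the difference was 3.32 (exact permutation p = 0.1).

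Within the maintenance pair, Uhrf1 was 1.04 to 1.44 times Dnmt1 in TPM at 0h and 0.080 to 0.142 times at 48h, a log2 difference of -3.09 (exact permutation p = 0.1). At 1h the ratio differed by -0.06 (exact permutation p = 0.7). Dnmt3b was 0.105 to 0.120 times Dnmt3a at 0h and 0.019 to 0.027 times at 48h, a difference of -1.47 (exact permutation p = 0.1). With 1 in place of 0.1 added, this difference was -0.10 (exact permutation p = 0.5). Tet3 stood above Tet2 in every 0h library, at 1.47 to 3.70 times, and below it in every 48h library, at 0.193 to 0.308 times, a difference of -2.92 (exact permutation p = 0.1). The Tet1 to Tet2 ratio rested on libraries where Tet1 is listed at 0, and its difference is not given (exact permutation p = 0.3).

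**Figure D3:**
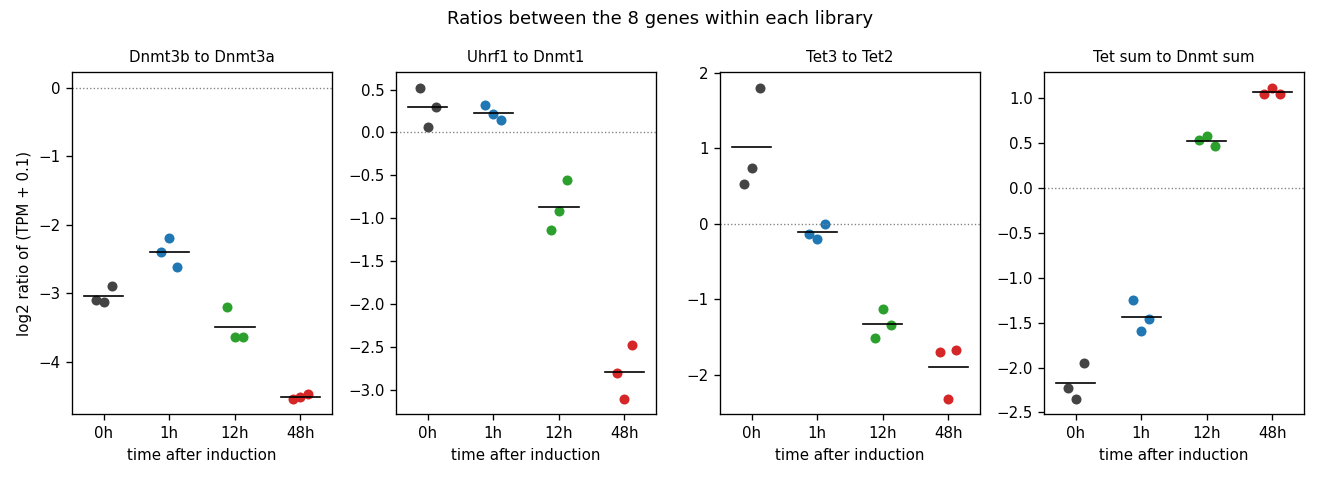
The y axis of each panel is the log2 ratio of 2 genes, or of the summed Tet genes to the summed Dnmt genes, within a library, with 0.1 TPM added to each term. Points are libraries, black lines the mean of 3, and the dotted line marks equal levels. The Tet sum lies below the Dnmt sum in all 0h and 1h libraries and above it in all 12h and 48h libraries.

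The genes whose pattern over the 12 libraries was most like a member's were taken from the 8341 named genes whose TPM averaged 1 or more. The measure is Pearson's r of log2 scaled TPM, and the libraries share their time points. Dnmt1 was closest to E2f2 (r = 0.993), Cdc6 (0.991) and Cdt1 (0.989), a cell cycle factor and a pair of replication licensing factors. On the deposited scale E2f2, Cdc6 and Cdt1 ranked 74, 34 and 3 (r = 0.978, 0.983 and 0.993). E2f2 and Cdc6 averaged 0.03 and 0.04 TPM at 48h, below the added 0.1. Uhrf1 was closest to the histone genes Hist1h3d (0.995) and Hist1h4d (0.993), whose near-identical copies make their reads uncertain, and to Abcf2 (0.993). Their ranks on the deposited scale were 6, 27 and 138. Dnmt3b was closest to Exosc7 (0.984), Mrps9 (0.984) and Rrp12 (0.981), and Tdg to Nup107 (0.976), Ncapg (0.975) and Aimp2 (0.969). Tet2 was closest to Rnf149 (0.987), Cyp4f18 (0.987) and Il1b (0.987), the last an inflammatory cytokine listed at 0 at 0h with a mean of 33.5 TPM at 48h. Rnf149, Cyp4f18 and Il1b ranked 2, 57 and 62 on the deposited scale (r = 0.985, 0.952 and 0.951).

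For Tet3, Dnmt3a and Tet1 the closest patterns had a lower r. Tet3 was nearest to Klhl26 (0.861), Hinfp (0.826) and Mapk1ip1l (0.809). Dnmt3a was nearest to Tspan4 (0.911), Smim19 (0.898) and Slc25a1 (0.893), and r with Tspan4 was 0.618 on the deposited scale. Tet1 was nearest to Mir703 (0.873), Arih1 (0.811) and Mrpl48 (0.803), with 0.902, 0.322 and 0.617 on the deposited scale, and these r rest on the libraries where Tet1 is listed at 0. Among the 8 genes themselves, r was 0.971 for Dnmt1 with Uhrf1, 0.963 for Uhrf1 with Dnmt3b and -0.935 for Dnmt1 with Tet2, while it was 0.054 for Dnmt1 with Dnmt3a.

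Genes that overlap a member in the annotation had low values. The antisense gene Dnmt3aos, which shares exon positions with Dnmt3a, had a mean of at most 0.21 TPM at any time, and Gm42567, antisense to Tet2, had a mean of 0.31 TPM at 48h and was listed at 0 before. Glt8d2, which overlaps Tdg, had at most 0.19 TPM. B230319C09Rik and 5430434F05Rik overlap Tet3 without sharing exons and had means of at most 0.87 and 0.45 TPM. Dnmt3bos, Mir7081, Gm26479, Gm48353 and Mir6374 were listed at 0. The library kit is not stated to keep strand, so reads of antisense partners cannot be told apart from those of the member.

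Other genes of the pathway were counted by list at 48h against 0h, where 27.2% of all genes fell and 15.9% rose as deposited, and 22.0% fell and 24.5% rose scaled. Of 10 genes listed as maintenance partners, Paf1 among them, 5 fell as deposited and 4 scaled, and their part in maintenance was not tested. Lig1, the ligase of replication, fell from 16.7 ± 1.38 TPM (SD, n = 3) to 0.12, 0 and 0 TPM in the 48h libraries (log2 change -7.01, adjusted p = 3.54e-08, limma). Cdca7, which works with the remodeller HELLS, fell from 20.3 ± 2.01 to 0.43 ± 0.25 TPM (SD, n = 3; log2 change -5.38, adjusted p = 1.22e-07, limma). All 10 S phase genes fell on both scales, with a median log2 change of -4.97 beside -6.31 for Uhrf1 and -3.22 for Dnmt1. Mcm5, a subunit of the replicative helicase, changed by -6.18 and Rrm2, a subunit of ribonucleotide reductase, by -6.38. At 12h 8 of the 10 S phase genes had fallen (9 scaled), and their part in the fall of the methylation genes was not tested.

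The list of methyl-CpG readers holds 10 proteins of the MBD family and of a zinc finger family. Its members MBD3, MBD5 and MBD6 carry the family's domain but are not known to bind methylated CpG selectively, so its counts are not only of proteins that read the mark. At 48h 5 of the 10 rose as deposited (15.9% of all genes) and 8 scaled (24.5%), and 1 fell on both scales. Zbtb4 rose from 0.36 ± 0.13 to 1.94 ± 0.51 TPM (SD, n = 3; log2 change 2.14, adjusted p = 0.00019, limma) and Mbd5 by 1.42 on the log2 scale (adjusted p = 0.0021, limma). Mbd3, a subunit of the NuRD complex, was the member that fell, from 10.2 ± 1.27 to 2.35 ± 0.99 TPM (SD, n = 3; log2 change -2.16, adjusted p = 0.00015, limma). At 12h, 7 of the 10 were higher as deposited (22.3% of all genes) and 6 scaled (16.0%), and 1, Mbd3, was lower scaled alone.

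Of 16 genes of base excision and deamination tested, 8 fell at 48h and 2 rose as deposited, and 7 fell and 5 rose scaled, where 15.9% and 24.5% of all genes rose. Apex1, the endonuclease that acts after a glycosylase such as TDG, fell from 24.1 ± 3.06 to 0.63 ± 0.21 TPM (SD, n = 3; log2 change -5.08, adjusted p = 4.45e-08, limma). Ung, the uracil glycosylase, fell by 4.84 (adjusted p = 1.01e-06, limma). Apobec1, a cytidine deaminase, rose from 1.20 ± 0.15 to 22.3 ± 1.20 TPM (SD, n = 3; log2 change 4.11, adjusted p = 1.70e-07, limma), and Gadd45b rose by 2.03 (adjusted p = 0.0015, limma).

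All 14 TET partners and CXXC proteins tested changed at 48h, 12 lower and 2 higher on both scales. The 2 that rose were Ogt, the glycosyltransferase that binds TET proteins, by 1.61 (adjusted p = 3.91e-05, limma), and Idh1, which makes the TET cosubstrate α-ketoglutarate in the cytosol, by 1.89 (adjusted p = 0.00010, limma). The mitochondrial enzymes Idh3a and Idh2 fell by 2.94 (adjusted p = 1.04e-06, limma) and 2.18 (adjusted p = 2.00e-05, limma). Of 13 genes listed under methyl donor supply, Ahcyl1 and Ahcyl2 among them, 9 fell and 1 rose as deposited, and 7 fell and 2 rose scaled. Of all genes, 27.2% and 15.9%, and 22.0% and 24.5%, did. The part of the listed genes in methyl donor supply was not tested. Shmt2 and Mthfd1 of folate metabolism fell by 5.67 (adjusted p = 2.23e-08, limma) and 5.36 (adjusted p = 6.52e-06, limma). Ahcyl2, a relative of Ahcy, rose by 2.43 (adjusted p = 9.85e-05, limma). Of the relatives of the methyltransferases, Trdmt1, an RNA methyltransferase, fell by 1.85 (adjusted p = 0.0066, limma), and Dnmt3l was too low to test.

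**Figure D4:**
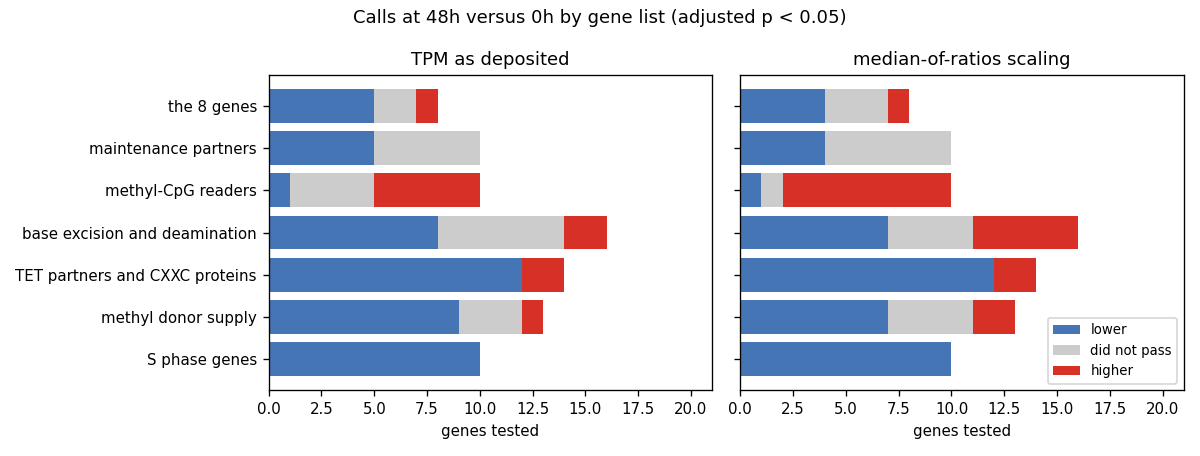
Bars count the genes tested in each list (x axis) that were lower, did not pass or were higher at 48h against 0h in limma at adjusted p under 0.05, for TPM as deposited (left) and scaled (right). All 10 S phase genes are lower on both scales, and the list of methyl-CpG readers, which includes Mbd3, Mbd5 and Mbd6, has 5 of 10 higher as deposited and 8 scaled.

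Promoter Capture Hi-C lists pairs of restriction fragments whose contact with a promoter bait was called significant. There is 1 list at each time, merged by the authors from 2 replicates, so these lists allow no test between times, separate replicates were not analysed here, and intervals cover counting error only. They treat contacts as independent, although some are with adjoining fragments, so they can be too narrow. The paper states a CHiCAGO cutoff of 5 for the interactions called at each time. The 0h list holds CHiCAGO scores of at least 5, and the other lists hold whole numbers from 2 upwards whose unit is not named. A shared cutoff therefore cannot be checked from the values, and the lists may not share one. A contact was counted when a start site of the gene lay in either fragment, leaving out pairs of fragments that both hold a start of the same gene, and distances run between the middles of the fragments in contact. The lists held 131598 to 144072 contacts, and the median over 18175 baits was 4 contacts at each time. That median is for a single bait fragment. The count of a gene pools every fragment that holds a start of it, bait or not, so the measures are unlike.

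Uhrf1 had 19 contacts at 0h (95% exact interval 11.4 to 29.7), 16 at 1h, 9 at 12h and 3 at 48h (0.62 to 8.77), and the intervals of 0h and 48h did not overlap. They did overlap with only the first listed fragment of a pair counted (10 and 3 contacts), and from the outermost start or the bait fragments alone (12 and 4 contacts in both). The 3 contacts of 48h were also listed at 0h. They joined Uhrf1 to the baits of Lrg1, Tnfaip8l1 and Safb with Safb2, at 183, 145 and 268 kb, and only the last was listed at all 4 times.

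Tet2 had 16, 10, 13 and 16 contacts at 0h, 1h, 12h and 48h, all with overlapping intervals. Of the 26 different fragments it contacted, 5 were listed at all 4 times, among them the bait of Ppa2 at 234 kb (0h score 17.3) and the bait of Gstcd and Ints12 at 453 kb. Another 6 fragments were listed at 48h alone, at 71.5 to 221 kb from the Tet2 fragment, and none of them was a bait.

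Tet3 had 27 contacts at 0h (95% exact interval 17.8 to 39.3), 14 at 1h, 9 at 12h (interval 4.12 to 17.1) and 10 at 48h (interval 4.80 to 18.4), the interval of 12h lying below that of 0h. The intervals of 0h and 12h overlapped with bait fragments alone (23 and 10 contacts) and with the first listed fragment alone (21 and 8 contacts). All 10 contacts of 48h were also listed at 0h. The outermost starts of Tet3 and Tet1 are not on a bait. Counting from these starts alone left Tet3 6, 2, 1 and 1 contacts, again with overlapping intervals, and Tet1 1, 0, 0 and 0. Dnmt3a had 17, 8, 17 and 20, Dnmt1 7, 3, 3 and 5, Dnmt3b 5, 5, 5 and 4, Tet1 5, 8, 8 and 4, and Tdg 6, 1, 5 and 2 contacts at 0h, 1h, 12h and 48h, and the intervals of each of these genes overlapped between all times. Fragments with a Dnmt1 start were joined at all 4 times to the bait of S1pr2 and to that of Cdc37. These lie 18.2 kb and 187 kb from the bait fragment of Dnmt1. With only bait fragments counted, a choice made after the counts were seen, Dnmt1 had 1 contact at 48h, as it did from the first listed fragment or the outermost start. The S1pr2 and Cdc37 contacts of 48h were therefore not both from the Dnmt1 bait fragment, and these distances need not hold at 48h.

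**Figure D5:**
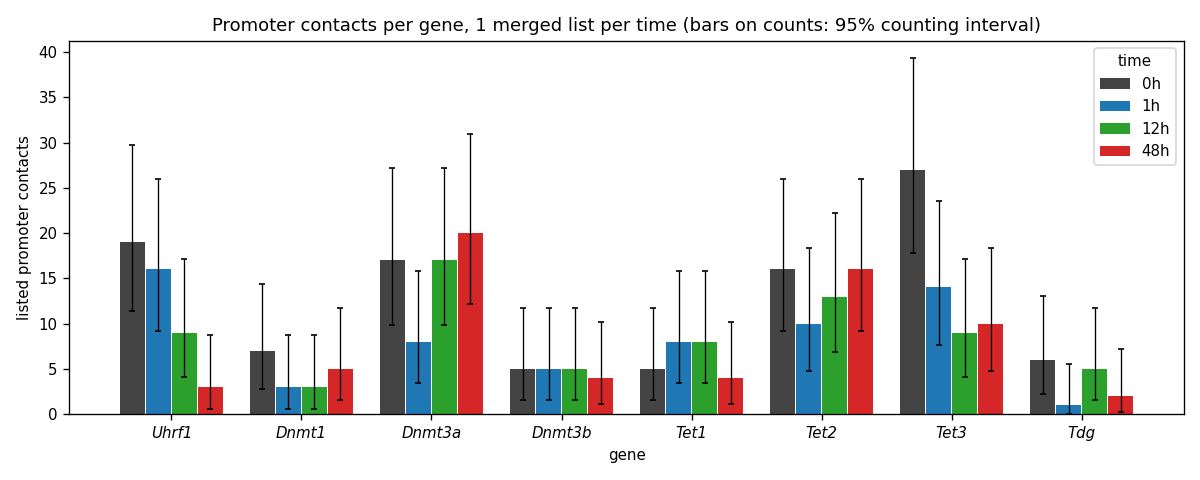
Bars count the listed promoter contacts of each gene (y axis) at 4 times, from 1 merged list a time, and whiskers are 95% exact intervals for counting error. Uhrf1 has 19 contacts at 0h and 3 at 48h, with intervals that overlap when only bait fragments are counted, and Tet3 has 27 and 10 with intervals that overlap as drawn, while Tet2 has 16 at both times.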

How the data were processed

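The results rest on 12 RNA-seq libraries and 4 merged Promoter Capture Hi-C lists, and Hi-C was not used here. The authors trimmed the RNA reads with Trim Galore 0.6.2, mapped them to mm10 with HISAT2 2.1.0 and deposited TPM estimated by RSEM. TPM keep no depth, so precision is given by the spread between replicates alone. For Promoter Capture Hi-C each contact of the deposited 0h list has a CHiCAGO score, and the other lists hold whole numbers with no named unit, of which only the pairs were used.

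Genes whose TPM averaged 0.1 or more (16415) entered limma 3.58.1 (R 4.3.3) on log2(TPM + 0.1), with the 4 time points in 1 model of 12 libraries, eBayes with a trend and Benjamini-Hochberg adjustment, called at an adjusted p under 0.05. The authors tested counts with DESeq2, and counts were not used here. Scaled values use median-of-ratios factors. Ratios within libraries were tested by exact permutation. Fold changes on this scale understate changes of low genes.

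The members, lists and tests were chosen with earlier results of these data known. Named list genes are the 2 with the largest rise and the 2 with the largest fall at 48h among those called on both scales without overlap between 0h and 48h. The model was tested on simulated data. It missed part of the 4-fold changes at the real spread of the libraries, and the acceptance limit of that test was lowered after its first run, with the model unchanged. Python 3.11.15, numpy 2.4.6, pandas 2.3.3, scipy 1.17.1 and matplotlib 3.10.9 were used for the other steps. Genes and start sites are from GENCODE M21.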

Additional observations from a re-analysis of the deposited data

How the results depend on the processing

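The calls of Uhrf1, Dnmt1 and Tet2 at 12h and 48h, of Tet2 at 1h, and of Dnmt3b and Tdg at 48h, against 0h passed under every alternative run for them. At 48h the log2 changes ranged from -6.86 to -4.35 for Uhrf1, -3.40 to -2.76 for Dnmt1, -2.92 to -0.71 for Dnmt3b, -2.25 to -1.45 for Tdg and 2.07 to 2.95 for Tet2. Dnmt3b and Tet1 have no value with a mean TPM of at least 1 required.

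Scaling moved most of the rest. Median-of-ratios scaling gave 1 lower gene at 1h and 4 at 12h. At 1h it turned the log2 changes of Dnmt1 (-0.19), Dnmt3b (-0.0131), Uhrf1 (-0.26), Tet3 (-0.00103) and Tdg (-0.16), none past the threshold, and at 48h that of Tet3 (0.0131). Rescaling without the 20 most abundant genes gave -0.0231 for Dnmt1 and -0.0882 for Uhrf1 at 1h, 0.29 for Tet2 from 12h to 48h, and 2 genes lower from 1h to 12h. Quantile normalization gave -0.0546 for Dnmt3b, -0.0421 for Uhrf1 and -0.0905 for Tdg at 1h, 0.00988 for Tet3 at 48h, and 0.32 for Tet2 from 12h to 48h, where median-of-ratios scaling gave 0.49. The fit of the 6 libraries compared called 3 genes higher at 1h (Tet2, Dnmt1 and Uhrf1).

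Deviations of same-numbered libraries correlated with r from -0.01 to 0.26 over 18 pairs (mean 0.094). For 36 pairs with different numbers r ran from -0.18 to 0.11 (mean -0.047). The main model did not take the numbers as pairs, and a replicate block was run as an alternative. The replicate block changed no call on the deposited scale (5 lower and 1 higher at 48h, 2 lower and 1 higher at 12h). It called 7072 genes at 48h against 7077 without it, and 7 of 12 libraries were closest to their own number. With the block and median-of-ratios scaling, 1 gene was lower at 1h, 4 at 12h and 2 from 1h to 12h, with Dnmt3b lost. The block with scaling turned the same values as scaling alone. For the ratios the paired exact sign-flip permutation test cannot go below p = 0.25, and gave 3.24 for Tet to Dnmt.

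Leaving out a library moved the number of genes higher at 1h between 1 and 2 and from 1h to 12h between 0 and 1. It moved Dnmt3a between -0.19 and 0.0988 at 1h and between -0.32 and 0.0212 at 12h, turned without 0h replicate 2 and, at 12h, also without 12h replicate 2. Counting promoter contacts from the first fragment changed 18 of 32 counts, from the outermost start 17 and from baits alone 12. The causes of these changes were not tested.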
